A study of Mus musculus with 4 samples.

Results

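Transcripts of the cardiac thin filament were followed in hearts of mouse embryos with and without Nkx2.5-Cre on a floxed Adar1 background. The set was chosen by gene symbol and holds 10 genes, namely the sarcomeric actins Actc1 and Acta1, the troponins Tnnt1, Tnnt2, Tnni1, Tnni3 and Tnnc1, the tropomyosin Tpm1, the leiomodin Lmod2 and the tropomodulin Tmod1. All 10 were found among the 14936 genes of the deposited table. Lmod2 was higher in the mutants, at 3.11 times its control mean, while Tnnt1, Tnni1 and Tnnc1 fell to 37.2%, 44.4% and 56.9% of theirs. Actc1, Tnnt2, Tnni3, Tpm1 and Tmod1 had both mutants below both controls but did not pass the threshold across all genes, and Acta1 overlapped between the groups.

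The thin filament of striated muscle is a double strand of actin on which tropomyosin and the troponin complex sit. Calcium binding to troponin C relieves the inhibition by troponin I, and troponin T ties the complex to tropomyosin, so that myosin heads can reach actin. Tropomodulin caps the pointed end of the filament and leiomodin promotes its elongation there. Several of these genes come in isoform pairs, and the rodent heart is known to replace the slow skeletal troponin I gene Tnni1 by the cardiac gene Tnni3 around birth.

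All 4 embryos were E18.5, on a C57BL/6 background and homozygous for the floxed Adar1 allele, so controls and mutants share that allele. Controls 47 and 50 are labelled Nkx2.5-Cre (WT/WT) and mutants 51 and 54 Nkx2.5-Cre (Cre/WT). The groups follow these titles, because the genotype field of both mutants names wildtype and KO together. Cre is carried by the mutants alone, so effects of the Cre allele and of recombining Adar1 cannot be told apart, and recombination by Nkx2.5-Cre reaches the cells in which that early heart gene is or was active rather than the whole animal. Each library came from the heart of 1 embryo, from which poly(A) RNA was sequenced as paired ends of 150 bases, and values are CPM, reads scaled by library size as the authors deposited them.

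The libraries held from 7457103 to 8998872 reads in the genes of the table. Adar stood at 30.2 and 35.7 CPM in controls 47 and 50 and at 195 and 213 CPM in mutants 51 and 54. Gene-level reads include exons that a floxed allele leaves in place, so these values do not check the deletion, and directions below are those of the libraries labelled mutant. The mitochondrial share of reads was 6.14% and 6.93% in control hearts 47 and 50 and 2.08% and 4.31% in mutant hearts 51 and 54. Nkx2-5, the gene named in the Cre allele, fell from 147 ± 5.39 to 81.0 ± 16.7 CPM (SD, n = 2 each), with a log2 fold change of -0.86 (SE 0.16, limma adjusted p = 0.00802), a call that needed both controls.

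The paralogs are distinct at the length of a read. Of the windows of 150 bases in the GENCODE M21 transcripts of each member, 0 occurred, in the sense direction, in a transcript of any other gene, the actin paralogs included. With windows of 50 bases, searched among paralogs only, Acta1 shared 1.83% with Actb and 0.652% with Actg1, and no other pair shared any. Reads trimmed shorter or mapped with mismatches are not covered by the longer windows. Tmod1 shares 32.6% of its exon length with Tstd2 on the opposite strand; the library kit keeps strand, per the labels' protocols, but how the authors' counting treated it is not stated. Troponin I and troponin T genes lie in pairs on GRCm38. Tnnt1 (chromosome 7, 4504570 to 4516382) and Tnni3 (chromosome 7, 4518305 to 4524229) are 1.9 kb apart, and Tnni1 (chromosome 1, 135779434 to 135810989) and Tnnt2 (chromosome 1, 135836354 to 135852260) are 25.4 kb apart with 1 protein-coding gene between them.

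Promoter windows of the 2 actins and of 3 members that passed the threshold are shown, the actins because they alone among the members hold a CArG box and the others because they were called in opposite directions. All 10 members matched the RefSeq promoter table (GRCm38.p6), with 12 windows, each from 250 bases before to 50 after a start. Both strands were searched for the CArG box, the binding sequence of serum response factor, for the MEF2 site, for CATTCC (the M-CAT element bound by TEAD factors), for TATAAA and for GATAAG. The windows are chr8:123894726-123895025 (minus strand) for Acta1, chr2:114052826-114053125 (minus) for Actc1, chr14:31208062-31208361 (plus) for Tnnc1, chr7:4515926-4516225 (minus) for Tnnt1 and chr6:24597521-24597820 (plus) for Lmod2. Each reads 5′ to 3′ along the gene, with matches in capitals.
Acta1: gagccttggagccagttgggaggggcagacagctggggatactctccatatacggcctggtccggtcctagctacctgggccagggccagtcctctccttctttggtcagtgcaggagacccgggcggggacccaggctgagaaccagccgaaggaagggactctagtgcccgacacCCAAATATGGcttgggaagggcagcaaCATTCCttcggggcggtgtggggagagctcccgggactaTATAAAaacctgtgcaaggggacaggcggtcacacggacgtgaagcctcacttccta
Actc1: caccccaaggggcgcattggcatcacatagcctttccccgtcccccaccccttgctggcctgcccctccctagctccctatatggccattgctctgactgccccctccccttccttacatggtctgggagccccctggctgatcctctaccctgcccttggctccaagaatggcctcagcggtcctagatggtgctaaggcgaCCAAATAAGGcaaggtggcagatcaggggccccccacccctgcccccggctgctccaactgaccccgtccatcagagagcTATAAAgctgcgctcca
Tnnc1: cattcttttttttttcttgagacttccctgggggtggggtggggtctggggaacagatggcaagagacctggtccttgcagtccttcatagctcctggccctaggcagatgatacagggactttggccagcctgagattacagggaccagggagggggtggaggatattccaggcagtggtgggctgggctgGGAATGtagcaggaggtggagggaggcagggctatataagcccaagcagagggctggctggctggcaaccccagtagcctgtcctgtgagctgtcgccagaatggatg
Tnnt1: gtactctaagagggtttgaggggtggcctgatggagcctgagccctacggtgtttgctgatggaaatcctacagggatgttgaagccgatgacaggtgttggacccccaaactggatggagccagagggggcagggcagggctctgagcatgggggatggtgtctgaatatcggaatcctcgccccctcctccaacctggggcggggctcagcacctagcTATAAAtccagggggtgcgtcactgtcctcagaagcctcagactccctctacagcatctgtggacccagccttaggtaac
Lmod2: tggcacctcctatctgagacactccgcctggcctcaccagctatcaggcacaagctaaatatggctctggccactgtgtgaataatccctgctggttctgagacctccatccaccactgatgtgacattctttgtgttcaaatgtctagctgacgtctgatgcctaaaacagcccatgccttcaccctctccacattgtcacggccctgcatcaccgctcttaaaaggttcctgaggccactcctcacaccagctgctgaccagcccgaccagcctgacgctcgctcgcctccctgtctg
A CArG box lay 73 bases before the start of Acta1 and 47 bases before that of Actc1, and those were the only members with one. It occurs in 1.63% of the 32851 windows of the table. CATTCC was found for 5 members (Acta1, Tmod1, Tnnc1, Tnnt2 and Tpm1) against 14.7% of all windows, and in the Tnnc1 window it reads as GGAATG because it lies on the other strand. TATAAA was found for Acta1, Actc1 and Tnnt1 (13.6% of windows), and GATAAG for Tnni3 (7.44% of windows). The TATAAA match began 7 bases before the start of Acta1, 30 before that of Tnnt1 and 34 after that of Actc1. The GATAAG match of Tnni3 began 25 bases after its start. The MEF2 site is present in 3.19% of windows and in no member's window, and the Lmod2 window held no match to any of the 5 motifs. No matches overlapped each other in these windows. A match of letters is a description of the window and not a binding site.

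Across the thin filament, 4 of 10 genes passed an adjusted p of 0.05 in a test over 14869 genes, 3 lower and 1 higher in the mutants. Of all genes tested, 31.9% passed in either direction, 14.2% lower and 17.8% higher, so the count of 4 is near the background. Both mutants lay below both controls for 8 of the 10 genes, against 36.3% of all genes tested, and above both controls for 1, against 36.0%. Which members passed depended on the method. Of the members, 7 were called lower with DESeq2 (10.5% of all genes), 4 with the edgeR quasi-likelihood test (13.6%), 6 after upper-quartile scaling (19.8%) and 2 after quantile normalization (18.4%). In either direction, 3 members passed with mutant 51 left out (26.9% of all genes) and 8 with mutant 54 left out (38.0%). With 1 mutant left, the spread between embryos came from the controls alone. The median log2 fold change was -0.75 for the members and -0.01 for all genes tested, and with quantile normalization it was -0.21 and -0.08. Together the 10 genes took 2.84% and 2.48% of the summed CPM in control hearts 47 and 50, and 1.43% and 1.91% in mutant hearts 51 and 54. In whole-heart RNA, fewer cardiomyocytes and less RNA per cardiomyocyte cannot be told apart.

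**Figure D1:**
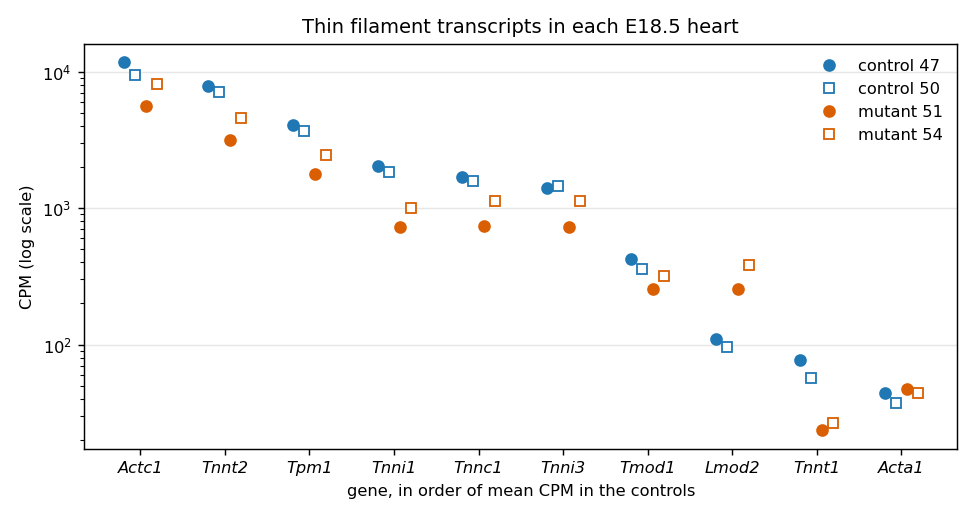
CPM on a log axis of each thin filament gene in each of the 4 hearts, genes in order of their control mean; blue marks controls 47 (filled) and 50 (open), orange marks mutants 51 (filled) and 54 (open). Lmod2 is the gene with both mutants above both controls, at 254 and 382 CPM against 109 and 95.7 CPM, and the Acta1 values of the groups overlap.

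Cardiac actin was the most abundant member. Actc1, the main actin of heart muscle (ENSMUSG00000068614, chromosome 2, 114047282 to 114053548), stood at 11687 and 9387 CPM in controls 47 and 50 and at 5615 and 8094 CPM in mutants 51 and 54. The groups did not overlap, but mutant 54 lay closer to control 50 than the controls lay to each other. Its log2 fold change of -0.64 (SE 0.55) did not pass the threshold (limma adjusted p = 0.397). DESeq2 on the recovered reads passed it (adjusted p = 0.0158, running from 0.0158 to 0.774 across alternatives), and quantile normalization turned its direction, to 0.19.

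Acta1, the skeletal actin that the rodent heart also makes before birth (ENSMUSG00000031972, chromosome 8, 123891769 to 123894751), was scarce, at 44.5 and 37.5 CPM in controls 47 and 50 and 47.4 and 44.4 CPM in mutants 51 and 54. Mutant 54 lay just under control 47, so the groups overlapped. The difference on the log2 scale was 0.16 (SE 0.14, limma adjusted p = 0.382). Per kilobase of exon, Acta1 made up 0.399% and 0.419% of the sarcomeric actins in control hearts 47 and 50, and 0.882% and 0.575% in mutant hearts 51 and 54. The log2 ratio of Acta1 to Actc1 was thus 0.80 higher in the mutants, with SDs of 0.05 for controls and 0.44 for mutants (n = 2 each), and the groups did not overlap. That difference was 0.49 with mutant 51 left out and 1.12 with mutant 54 left out. A scaling by 1 factor per library leaves such ratios as they are, but quantile normalization does not, and it turned this difference to -0.12. No test is given for the ratios because 2 libraries against 2 are too few for an exact permutation test to reach 0.05.

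Both troponin T members had both mutants below both controls, and the slow skeletal gene alone passed the threshold. Tnnt2, the cardiac troponin T gene (ENSMUSG00000026414), stood at 7787 and 7128 CPM in controls 47 and 50 and at 3150 and 4561 CPM in mutants 51 and 54. Both mutants were well below both controls, and the mutants differed from each other more than the controls did. Tnnt2 had a log2 fold change of -0.97 (SE 0.43, limma adjusted p = 0.12), which passed with DESeq2 (adjusted p = 3.03e-05) and with mutant 54 left out (adjusted p = 0.0201). Across alternatives the adjusted p ran from 3.03e-05 to 1. Tnnt2 held rank 7 by CPM in all 4 libraries, and its log2 fold change was 0.00 after quantile normalization, which gives equal ranks equal values.

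Tnnt1, the troponin T gene of slow skeletal muscle (ENSMUSG00000064179), was far lower, at 77.2 and 56.8 CPM in controls 47 and 50 and 23.5 and 26.4 CPM in mutants 51 and 54. These values rest on between 216 and 672 reads per library. Both mutants were below both controls and close to each other, unlike the mutant values of the abundant members. Tnnt1 fell by 1.38 on the log2 scale (SE 0.17, limma adjusted p = 0.00199), but did not pass with control 47 left out (adjusted p = 0.0522, running from 1.25e-07 to 0.0522 across alternatives). Per kilobase of exon of all transcripts, Tnnt1 was 3.37% and 2.73% of Tnnt1 plus Tnnt2 in the controls and 2.56% and 1.99% in mutants 51 and 54. With exons of the protein-coding basic transcripts the shares were 1.15% and 0.926% against 0.867% and 0.672%, so their height depends on the length taken. The log2 ratio of Tnnt1 to Tnnt2 was 0.44 lower in the mutants (SDs of 0.22 and 0.26, n = 2 each), and control 50 and mutant 51 lay close together. With quantile normalization, which set the Tnnt2 difference to 0.00, it was -1.47. Tnnt3, the fast skeletal troponin T gene, rose from 2.75 ± 1.15 to 9.87 ± 0.357 CPM (SD, n = 2 each), a log2 fold change of 1.57 (SE 0.28, limma adjusted p = 0.00752).

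The fetal and the adult troponin I genes had both mutants below both controls, and of these the fetal one alone passed the threshold. Tnni1 (ENSMUSG00000026418) stood at 2050 and 1829 CPM in controls 47 and 50 and at 721 and 1002 CPM in mutants 51 and 54. Both mutants lay far below both controls, as for Tnnt2, its neighbour on chromosome 1. Tnni1 fell by 1.19 (SE 0.24, limma adjusted p = 0.0112), a call not reached with control 47 left out (adjusted p = 0.151) or control 50 left out (adjusted p = 0.117), and the adjusted p ran from 5.97e-08 to 0.151 across alternatives.

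Tnni3, the cardiac troponin I gene of the adult heart (ENSMUSG00000035458), stood at 1406 and 1445 CPM in controls 47 and 50 and at 728 and 1126 CPM in mutants 51 and 54. The controls differed little, and mutant 51 was much lower than mutant 54. The difference on the log2 scale was -0.65 (SE 0.25, limma adjusted p = 0.0853). It was -0.34 with mutant 51 left out and -0.97 with mutant 54 left out, when it passed (adjusted p = 0.00421, running from 0.00421 to 0.368 across alternatives). DESeq2 and upper-quartile scaling passed it too (adjusted p = 0.0179 and 0.0476). Tnni3 shares 86 exon bases with Dnaaf3, which lay between 0.979 and 2.76 CPM in all 4 libraries.

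Per kilobase of exon, Tnni1 made up 45.5% and 42.0% of Tnni1 plus Tnni3 in controls 47 and 50, and 36.2% and 33.8% in mutants 51 and 54. With exons of the protein-coding basic transcripts, a length chosen after the data were seen, the shares were 51.1% and 47.6% against 41.5% and 38.9%. Which of the 2 genes was the more abundant in control 47 therefore depends on the length taken. The difference between the groups cannot depend on it, since a fixed length per gene shifts the log2 ratio of every library by the same amount. The log2 ratio was 0.53 lower in the mutants, with SDs of 0.14 and 0.11 (n = 2 each). The groups did not overlap, and the difference lay between -0.64 and -0.43 with each library left out in turn and was -0.54 with quantile normalization. Tnni2, the fast skeletal troponin I gene, stood at 4.43 ± 0.399 CPM in control hearts and 2.31 ± 1.11 CPM in mutant hearts (SD, n = 2; log2 fold change -0.76, SE 0.32, limma adjusted p = 0.106).

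**Figure D2:**
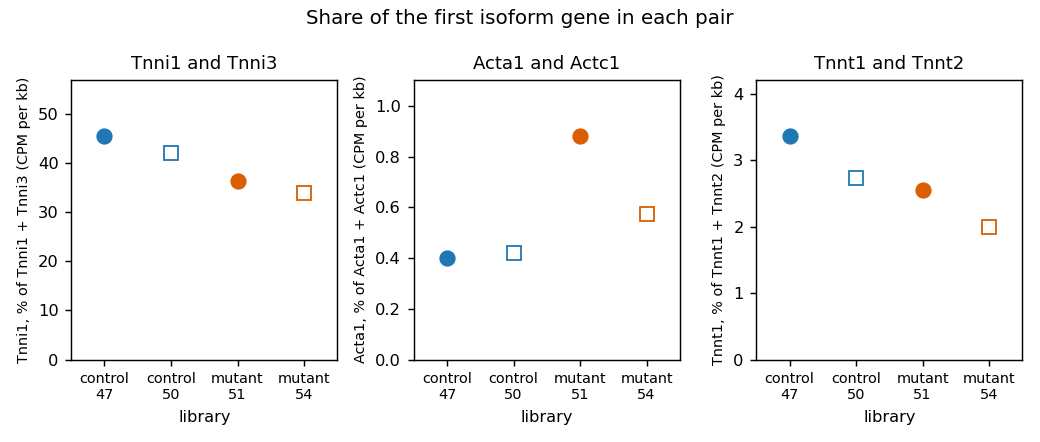
Share, in percent of CPM per kilobase of exon, of Tnni1 in Tnni1 plus Tnni3 (left), of Acta1 in Acta1 plus Actc1 (middle) and of Tnnt1 in Tnnt1 plus Tnnt2 (right), 1 point per heart, controls in blue and mutants in orange. Exon lengths are those of all transcripts, and the height of the shares depends on that choice. The groups do not overlap in any panel; the Tnni1 share is 45.5% and 42.0% in the controls and 36.2% and 33.8% in the mutants, and the Acta1 share is at most 0.882% and higher in the mutants, a direction that turned with quantile normalization (-0.12 on the log2 scale).

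Troponin C, the calcium sensor, comes from 1 gene in the heart, which slow skeletal muscle also uses. Tnnc1 (ENSMUSG00000091898, chromosome 14, 31208312 to 31211729) stood at 1693 and 1584 CPM in controls 47 and 50 and at 744 and 1119 CPM in mutants 51 and 54. Both mutants were below both controls, mutant 51 by more. Tnnc1 fell by 0.84 (SE 0.25, limma adjusted p = 0.04), the weakest of the 4 calls. It was lost without either control, without mutant replicate 51 (log2 fold change -0.55, adjusted p = 0.0563) and with quantile normalization (adjusted p = 0.105), and the adjusted p ran from 0.000832 to 0.258 across alternatives. Tnnc2, the fast skeletal gene, is not listed in the table.

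The order of the 3 subunits depended on the exon length used. With all transcripts, troponin C had the highest level per kilobase in control 47 (1626 CPM per kb, against 1254 for summed troponin I and 1042 for summed troponin T). With the protein-coding basic transcripts, which cut the Tnnt2 length from 7.75 to 1.26 kb, troponin T was highest (6240 CPM per kb, against 3157 and 2348 for troponins I and C). Actc1 was the most abundant member with either length, at 7223 and 7934 CPM per kb in control 47. Acta1 was the least abundant in the controls and Tnnt1 in the mutants, again with either length. With all transcripts, Tnnt1 had 10.7 and 12.0 CPM per kb in mutants 51 and 54, against 30.9 and 28.9 for Acta1.

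Tpm1, which encodes the main tropomyosin of the heart and, through other exons, non-muscle forms (ENSMUSG00000032366, chromosome 9, 67022590 to 67049406), stood at 4067 and 3676 CPM in controls 47 and 50 and at 1788 and 2430 CPM in mutants 51 and 54. The groups did not overlap. Tpm1 as a whole gene had a log2 fold change of -0.89 (SE 0.31, limma adjusted p = 0.0663). It passed with the edgeR quasi-likelihood test on recovered reads (adjusted p = 0.0415), DESeq2, upper-quartile scaling and without mutant replicate 54, and the adjusted p ran from 6.14e-05 to 0.727 across alternatives. The authors' deposited table gives Tpm1 an FDR of 0.0477, along with 0.00258 for Tnnt1, 0.00274 for Lmod2 and 0.0151 for Tnni1, while Tnnc1 is at 0.0524. By the authors' FDR, 4 of the 10 genes are under 0.05, against 30.9% of all genes in the authors' deposited table. The other tropomyosin genes did not pass: Tpm2 had a log2 fold change of -0.33 (SE 0.15), Tpm3 of 0.04 (SE 0.16) and Tpm4 of -0.37 (SE 0.13).

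Of the 2 regulators of the pointed end, Lmod2 rose and Tmod1 did not pass the threshold. Lmod2, the cardiac leiomodin that lengthens thin filaments (ENSMUSG00000029683, chromosome 6, 24597762 to 24605414), stood at 109 and 95.7 CPM in controls 47 and 50 and at 254 and 382 CPM in mutants 51 and 54. Both mutants were far above both controls, and Lmod2 moved from rank 1799 and 2122 by CPM in the controls to 599 and 329 in the mutants. It rose by 1.60 (SE 0.20, limma adjusted p = 0.00188). With control 47 left out it no longer passed (adjusted p = 0.0575), nor with control 50 left out (adjusted p = 0.0674), and the adjusted p ran from 4.84e-12 to 0.0674 across alternatives. Its log2 fold change stayed between 1.31 and 1.89 in all 13 alternatives.

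Tmod1, the tropomodulin of heart muscle (ENSMUSG00000028328, chromosome 4, 46038935 to 46116032), stood at 426 and 356 CPM in controls 47 and 50 and at 255 and 317 CPM in mutants 51 and 54. The groups did not overlap, and the gap between control 50 and mutant 54 was smaller than the spread within either group. On the log2 scale Tmod1 differed by -0.45 (SE 0.16, limma adjusted p = 0.0731), which passed with upper-quartile scaling (adjusted p = 0.0319) and with mutant 54 left out (adjusted p = 0.0176). The adjusted p ran from 0.0176 to 0.394 across alternatives. Tstd2, which overlaps it on the other strand, stood at 238 and 195 CPM in controls 47 and 50 and 150 and 182 CPM in mutants 51 and 54. Its part in the Tmod1 value was not tested. Tmod3, the widely expressed tropomodulin, had a log2 fold change of 0.02 (SE 0.13), with overlapping groups, and Lmod3, a leiomodin of striated muscle, rose from 54.7 ± 3.69 to 114 ± 50.4 CPM (SD, n = 2 each; 0.97, SE 0.27, limma adjusted p = 0.0339). The Lmod3 call needed both controls.

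**Figure D3:**
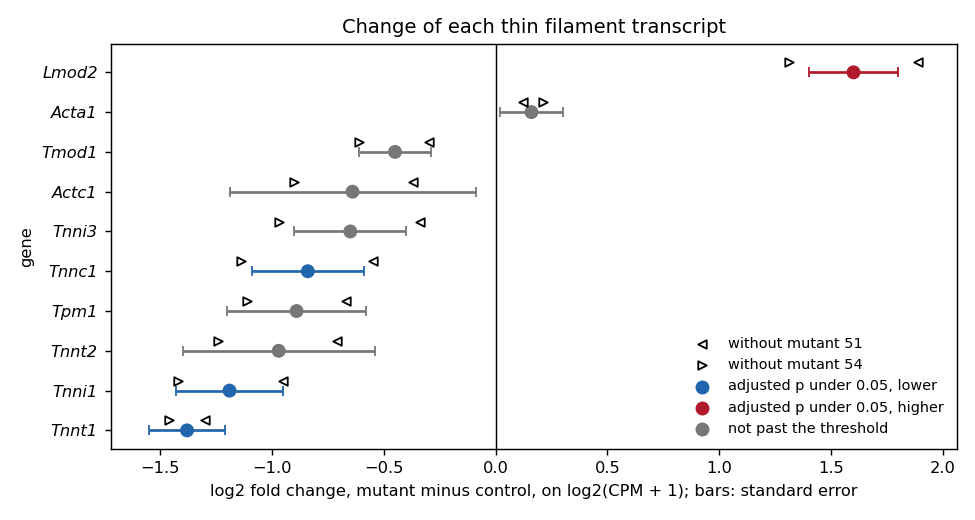
Log2 fold change on log2(CPM + 1), mutants minus controls, of each thin filament gene with its standard error (bars), coloured by whether it passed an adjusted p of 0.05; open triangles give the value without mutant 51 or without mutant 54. Tnnt1, Tnni1 and Tnnc1 are past the threshold on the lower side and Lmod2 on the higher side, and for the 8 genes with negative values leaving out mutant 51 moves the value toward 0.

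The mutants differed from each other in a shared way. In 9 of the 10 genes mutant 51 was lower than mutant 54, Lmod2 among them at a ratio of 0.666, against 52.4% of all genes tested. The ratio of mutant 51 to mutant 54 lay between 0.646 (Tnni3) and 0.892 (Tnnt1) in those genes and was 1.07 for Acta1. The 3 members with the highest CPM had ratios of 0.694 (Actc1), 0.691 (Tnnt2) and 0.736 (Tpm1). Mitochondrial transcripts were also fewer in mutant 51 than in mutant 54, at 2.08% and 4.31%, and their part in these ratios was not tested.

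Among 2132 genes with a mean of at least 100 CPM, those nearest to Tnnt2 in their centred log2(CPM + 1) values over the 4 libraries were Aqp1, Cox4i1, Phyh, Tmem38a and Ndufv1. Their Euclidean distances were between 0.0301 and 0.0697. The nearest thin filament genes were Tpm1, at rank 13, Tnnc1, at rank 26, and Tnni1, at rank 66, while Lmod2 was at rank 2007. Over 4 libraries such likeness is a description.

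Other genes of these families were mixed. Of 15 further actin, troponin, tropomyosin, leiomodin and tropomodulin genes, 13 were tested, of which 3 rose and 2 fell, with a median of -0.29. Among all genes tested, 17.8% passed on the higher side and 14.2% on the lower. Acta2, the smooth muscle actin that early cardiomyocytes also make, stood at 927 and 706 CPM in controls 47 and 50 and at 133 and 311 CPM in mutants 51 and 54. It fell by 1.98 (SE 0.36, limma adjusted p = 0.00826). Actg2, the other smooth muscle actin, fell by 1.23 (SE 0.22). Actg1, the cytoplasmic gamma actin, rose by 0.76 (SE 0.16), and Actb, the cytoplasmic beta actin, stood at 953 ± 69.0 CPM in control hearts and 1350 ± 160 CPM in mutant hearts (SD, n = 2; 0.50, SE 0.20, limma adjusted p = 0.0972). The fall of Acta2 and Actg2 stood beside smooth muscle markers, of which 6 of 12 fell, those 2 included.

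Of 26 genes of filament assembly, capping and turnover, 2 rose and 2 fell, with a median of -0.10. Over all genes tested the shares were 17.8% higher and 14.2% lower. Dstn, which encodes the actin-severing protein destrin, fell by 1.37 (SE 0.21), from 704 ± 11.7 to 278 ± 84.6 CPM (SD, n = 2 each). Smyd1, a muscle methyltransferase needed for sarcomere assembly, fell by 0.69 (SE 0.14). Nrap, a scaffold of myofibril assembly, rose by 0.86 (SE 0.18) and Daam1, a formin, by 0.62 (SE 0.12). The other 22 genes did not pass.

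Of 14 transcription factor and coactivator genes known to act on sarcomere genes, 4 rose and 1 fell, with a median of 0.18; 5 of 14 is near the 31.9% of all genes that passed. Gata4 rose by 0.95 (SE 0.14), Tead1, a factor of the CATTCC element, by 0.82 (SE 0.14), Tbx20 by 0.71 (SE 0.15) and Myocd, the cardiac coactivator of serum response factor, by 0.59 (SE 0.13). Nkx2-5 was the 1 that fell. Of 10 genes of thyroid hormone action and of maturation, Nppb, a fetal and stress natriuretic peptide, rose by 1.99 (SE 0.26), while Thra, the main thyroid hormone receptor of the heart, fell by 0.67 (SE 0.11) and Ckm, muscle creatine kinase, by 1.80 (SE 0.45), which DESeq2 did not pass. Nppa, the other natriuretic peptide gene of that list, went the other way and did not pass (-0.56, SE 0.24, limma adjusted p = 0.112). The median of that list was -0.50.

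The thick filament and the Z-disc were set beside the thin filament. All 10 thick filament genes had negative log2 fold changes, with a median of -1.02, against -0.75 for the thin filament. Of the 10, 5 fell, against 14.2% of all genes tested. Myl7 and Myl3, the atrial regulatory and ventricular essential light chains, fell, with log2 fold changes of -1.51 (SE 0.25) and -1.39 (SE 0.34). Mybpc3, Myl4 and Myl2 fell as well, at -1.20 (SE 0.35), -0.87 (SE 0.27) and -1.17 (SE 0.36), but not with mutant 51 left out or with quantile normalization. Myl4 was also lost with the edgeR quasi-likelihood test and Myl2 with a pseudocount of 5. Myh6 and Myh7, the cardiac myosin heavy chains, had log2 fold changes of -1.24 (SE 0.51) and -0.54 (SE 0.60) and did not pass. Of 17 tested genes of titin, the Z-disc and the M-band, 3 rose, a share near the 17.8% of all genes tested that did. They were Flnc by 1.14 (SE 0.18), Myoz2 by 0.72 (SE 0.12) and Myom2 by 0.50 (SE 0.15). The median was 0.12, and 8 of the 17 had negative log2 fold changes. Ttn, the titin gene, had both mutants below both controls but did not pass (-0.94, SE 0.37, limma adjusted p = 0.0918). Myom2 passed in 8 of 13 alternatives, and beside the controls it was lost with mutant 54 left out, with upper-quartile scaling and with the edgeR quasi-likelihood test. The difference between these lists was not tested. Of the 25 calls in these lists and the families above, that of Tnnt3 held with control 47 left out and the others did not. With control 50 left out all 25 were lost. In those settings 571 and 669 genes of the whole table were called.

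Most cardiomyocyte markers outside the sarcomere were lower in the mutants, as were most thin filament genes. Of 15 such markers 12 had negative log2 fold changes, with a median of -0.85. Of the 15, 9 fell, against 14.2% of all genes tested, and 1, Tbx20, rose. Their summed level lay between 7403 and 7668 CPM in the controls and between 3762 and 6011 CPM in the mutants, lower in mutant 51. Casq2, the calcium buffer of the sarcoplasmic reticulum, fell from 1079 ± 0.214 to 397 ± 153 CPM (SD, n = 2 each). Corin, the protease that activates natriuretic peptides, fell from 164 ± 11.5 to 66.8 ± 35.2 CPM and Fabp3, a fatty acid carrier, from 767 ± 44.0 to 382 ± 140 CPM. Casq2, Corin and Fabp3 each passed in 11 of 13 alternatives. The 5 markers that did not pass were Fgf12 (-0.86), Ryr2 (-0.45), Cox6a2 (-0.15), Cacna1c (0.07) and Popdc2 (0.30), with log2 fold changes in brackets. The part of cardiomyocyte number or content in the thin filament values was not tested.

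Markers of other cells were examined in the same way, beside 17.8% of all genes tested that passed higher and 14.2% lower. Of 20 skeletal muscle markers 14 are not listed in the table, among them Myod1, Myog, Myf5, Myf6 and Pax7, and the 6 that are listed summed to between 150 and 174 CPM in the controls and between 69.9 and 130 CPM in the mutants. Of the 6, Tnnt3 rose and Myl1 fell by 0.89 (SE 0.27). The 12 smooth muscle markers summed to between 2117 and 2427 CPM in control hearts and 1614 and 1932 CPM in mutant hearts. Des, also in the Z-disc list, held 822 and 651 CPM of these in controls 47 and 50 and 1291 and 757 CPM in mutants 51 and 54. Of the 12 markers, 10 had negative log2 fold changes, and Des did not. Fibroblast markers, of which 3 of 8 fell, went from between 7139 and 8803 CPM to between 4643 and 5501 CPM. The 8 endothelial markers had log2 fold changes between -0.32 and -0.03 and overlapping sums, 1044 and 1273 CPM in control hearts against 1014 and 1056 CPM in mutant hearts. No endothelial marker passed, nor had any an unadjusted p under 0.05, with limma, edgeR or DESeq2. The 7 erythroid markers in the table summed to 5737 and 13190 CPM in control hearts and 689 and 5163 CPM in mutant hearts. Of these, 0 passed with limma (adjusted p from 0.0833 to 0.129, with 5 at an unadjusted p under 0.05), edgeR or DESeq2. Their median log2 fold change was -2.21, and it was -0.75 with mutant 51 left out and -3.67 with mutant 54 left out. Of 8 macrophage markers 4 rose and 1 fell, with sums of 130 to 150 CPM in control hearts and 140 to 185 CPM in mutant hearts. Of 8 lung and airway markers the 2 listed in the table, Foxj1 and Sftpb, fell, but both rest on few reads. Foxj1 had 45 and 36 reads in controls 47 and 50 and 6 and 0 in mutants 51 and 54. Sftpb had 15 and 29 against 3 and 4. The part of these cells in the thin filament values was not tested.

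**Figure D4:**
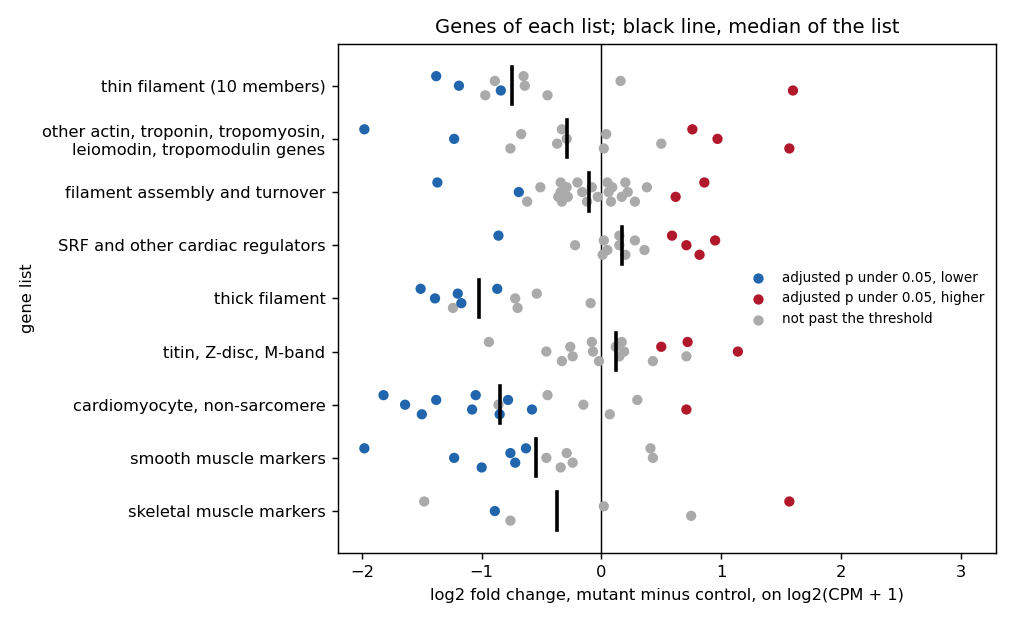
Log2 fold change on log2(CPM + 1), mutants minus controls, of every tested gene in 9 lists, 1 point per gene and coloured by whether it passed an adjusted p of 0.05; black lines are list medians. The thin filament has a median of -0.75, the thick filament -1.02, the titin, Z-disc and M-band list 0.12, and cardiomyocyte markers outside the sarcomere -0.85.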

How the data were processed

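RNA of 4 E18.5 hearts was analysed, 2 per group. Per the submitters' processing notes, fastp 0.20.0, STAR, edgeR 3.10, DESeq and GRCm38 were used; what each tool did, and how reads were counted and annotated, is not given in the sources used here. Deposited CPM columns hold a signal in reads per unit of effective library size, per the file headers and the values. Their p-value and FDR columns and mean log2 CPM are the authors' own; the deposited fold change and F columns, read as a score, were not used. Genes with low values are absent (smallest row maximum 2.29 CPM).

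All CPM values (100%) were whole multiples of 1 step per library within 0.001, which gave whole reads per gene. The listed genes held 8998872 and 7457103 reads in controls 47 and 50 and 8593443 and 8444488 in mutants 51 and 54, so a member rests on 216 reads or more in each library. The plan named the edgeR quasi-likelihood test for counts and limma-trend for normalized values, and the deposited values are normalized. Log2(CPM + 1) was fitted, for 14869 genes reaching 1 CPM in 2 libraries, by group with limma-trend (limma 3.58.1, R 4.3.3), adjusted by Benjamini-Hochberg over all genes, threshold 0.05. Fold changes on this scale understate low genes. The method was also run on simulated reads in which few genes were changed. That run cannot show its error rate in these data, where many genes were called. On the recovered reads, edgeR 4.0.16 (quasi-likelihood) called 4653 genes and DESeq2 1.42.0 called 3674, against 4750. The labels call each library a separate embryo, so p-values rest on 2 embryos per group. They do not measure the spread between those embryos alone. Limma-trend blends a gene's own spread with the one estimated, over all genes, for its level of expression. The SEs of Tnnt2 (0.43) and Actc1 (0.55) are larger than their own 4 values would give, and that of Tnnt1 (0.17) is smaller. The rule for named genes took all members, Adar, Nkx2-5 and up to 6 called genes per list by smallest p. It also took a fixed set of paralogs and the 5 profiles nearest to Tnnt2. Tstd2 and Dnaaf3 were added because they overlap members. Ttn, Nppa and the cardiomyocyte markers not called were added later, to show genes that did not pass. Members and lists were chosen with earlier results of these data known. Levels per kilobase used exon unions of GENCODE M21 (GRCm38), to which 14916 identifiers matched and 20 did not. Alternatives changed the pseudocount, filter, scaling or test, or left out 1 library.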

Additional observations from a re-analysis of the deposited data

How the results depend on the processing

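No paired analysis was possible because the embryo numbers of the 2 groups are all different. Over 13 alternatives, 107 of 130 member log2 fold changes kept their direction and their side of the threshold, 9 lost a call and 12 gained one. The other 2 came with quantile normalization, with which Actc1 changed sign, to 0.19, and the Tnnt2 difference vanished, at 0.00; that method gives equal ranks equal values, and Tnnt2 held rank 7 by CPM in all 4 libraries. The count of members called was 7 with upper-quartile scaling and 8 with DESeq2, against 4, and ranged from 0 (without control replicate 47) to 8 (without mutant replicate 54) with a library left out. Upper-quartile scaling and quantile normalization moved the median of all genes to -0.09 and -0.08, with 2252 up and 2939 down, and 2188 up and 2738 down, against 2643 and 2107. Over the table, 571 to 5655 genes were called with a library left out, and 0 to 46 of the other sarcomere, filament and regulator genes against 25. With 1 control left, the spread between embryos came from the mutants alone, and with 1 mutant left from the controls alone. Calls made with a mutant left out therefore do not include the spread between mutants. With a library left out, the Tnni1 to Tnni3 log2 difference ranged from -0.64 to -0.43, Acta1 to Actc1 from 0.49 to 1.12 and Tnnt1 to Tnnt2 from -0.62 to -0.25. With quantile normalization, chosen for these ratios after seeing the data, they were -0.54, -0.12, a change of sign from 0.80, and -1.47 against -0.44. The cause of the other changes was not tested.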
